A study of Mus musculus with 6 samples.

Results

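The epithelial junction and cadherin genes comprised 76 protein-coding genes of the 54532 genes measured, and they were chosen by symbol alone. They were 23 cadherins of the numbered Cdh series, 23 claudins, 16 connexins of the Gja, Gjb and Gjc series, 6 genes of the desmosome plaque (Dsp, Jup and Pkp1 to Pkp4), Epcam, and 7 genes of the tight junction plaque and its membrane partners (among them Tjp1, Tjp3, Cgn, Cgnl1, Ocln and F11r). RNA was sequenced from bone marrow-derived macrophages (BMDMs) that had shared a culture with ID8, a mouse ovarian cancer line. In 3 libraries the ID8 cells had first received cisplatin, a platinum drug that crosslinks DNA, at 40 µM, and in the other 3 they had received phosphate-buffered saline (PBS). Every library therefore came from a co-culture, and none came from BMDMs or ID8 cells alone. Per the study's methods, the marrow cells came from young C57BL/6 mice, and how they were separated from the ID8 cells after co-culture is not given in the sources used here. The labels do not say whether the 3 libraries of a group came from separate cultures or animals, so p-values measure only the spread between these libraries, which may be technical.

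Epithelial cells are joined by several kinds of contact. Tight junctions seal the space between cells through claudins, occludin and junctional adhesion molecules anchored to zonula occludens proteins. Adherens junctions and desmosomes hold cells together through cadherins linked to actin and to keratin filaments, and connexins form gap junction channels through which small molecules pass. ID8 cells derive from the ovarian surface epithelium, a mesothelial layer that joins its cells in these ways. Some of the same genes are also known from macrophages, among them F11r on leukocytes, Gja1 and Cdh1.

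Of the 76 genes, 22 reached the level needed for testing, which was at least 1 FPKM (fragments per kilobase of gene and per 1000000 reads) in at least 3 of the 6 libraries. Of these 22, 13 were downregulated with cisplatin and 0 were upregulated. A gene was called when its adjusted p in limma was under 0.05 and its log2 fold change was at least 1 in size. Among all 13441 genes tested, 11.3% were called lower and 4.67% were called higher. By the adjusted p alone, 15 of the 22 genes were lower, 5 were higher and 2 did not pass, where 35.1% of all tested genes were lower and 32.9% were higher. The 3 cisplatin libraries lay apart from the 3 PBS libraries for 20 of the 22 genes, as they did for 72.4% of all tested genes. The median log2 fold change was -1.27 over the 22 genes and -0.0011 over all tested genes, and without the filter it was 0.0087 over the 63 members with any read. Pkp1, Pkp2, Cldn3 and Cdh2 were tested only because the PBS libraries reached the minimum. This fixed the direction of Pkp1, with 0 cisplatin libraries at 1 FPKM, and favoured the same direction for the others. The counts and the median are therefore given as a description. All fold changes are cisplatin minus PBS on the log2(FPKM + 1) scale, which understates changes of low values.

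**Figure D1:**
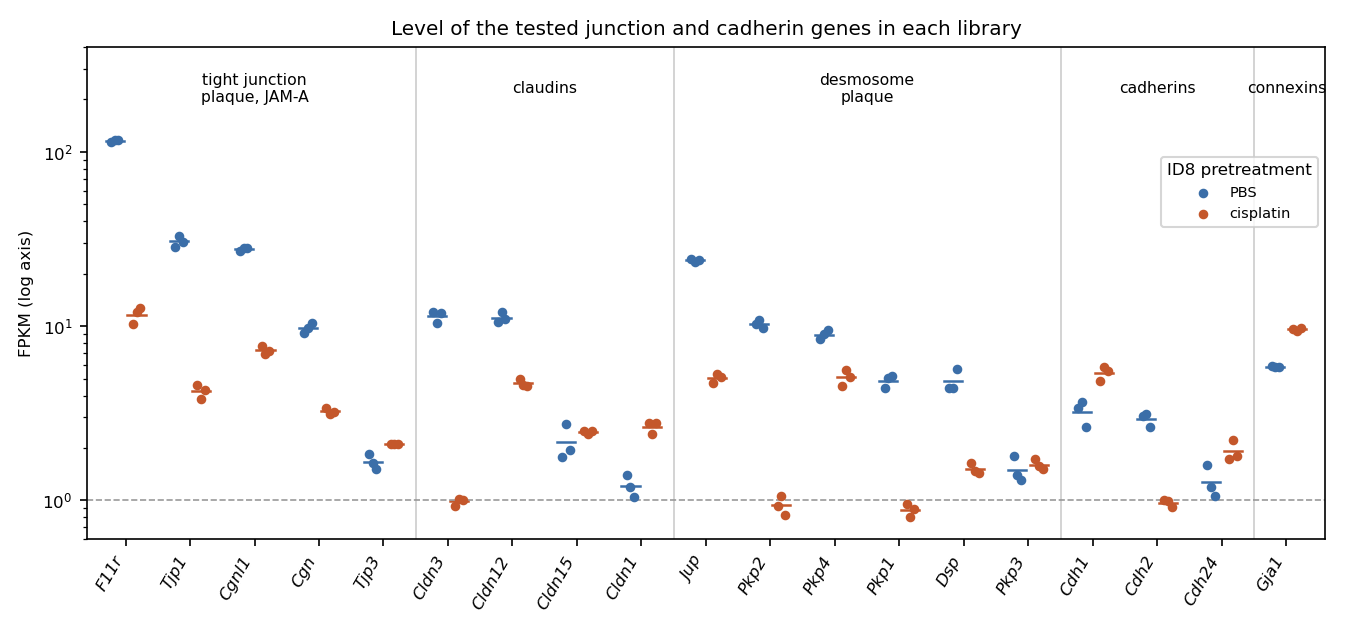
FPKM (log axis) of 19 of the 22 tested junction and cadherin genes in each of the 3 PBS and 3 cisplatin libraries, with 1 point per library. F11r stood highest in both groups, at 113 to 118 FPKM with PBS and 10.2 to 12.6 FPKM with cisplatin, and the 6 libraries overlapped only for Cldn15 and Pkp3.

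Markers of both cell types were present in every library and moved between the groups. Over all tested genes, 32.9% were higher and 35.1% lower by the adjusted p alone, and 4.67% were called higher and 11.3% lower. All 10 macrophage markers listed were tested, and all 10 were higher with cisplatin by the adjusted p, 4 of them past the fold threshold, although scaling libraries by 4 Y-linked genes, under which the median over all tested genes was -0.81, left 5 of the 10 above 0, among them Mrc1 (2.16), Lyz2 (0.60) and Itgam (0.46), and put 5 below 0, among them Adgre1 (-0.097), Csf1r (-0.037) and Cd68 (-0.77), with all 10 above that median. Of the 4 called, Mertk and Mrc1 passed the filter through the cisplatin libraries only, so they had to be higher there. Their summed level ranged from 1637 to 1648 FPKM with PBS and from 4202 to 4355 FPKM with cisplatin. Of 13 ID8 and mesothelial markers, 10 were tested, all 10 were lower and 7 were called. Podxl and Muc1 passed the filter only because of the PBS libraries, which fixed the direction of Podxl and favoured that of Muc1. The summed level of the 13 markers ranged from 1036 to 1108 FPKM with PBS and from 180 to 195 FPKM with cisplatin. Krt19, a keratin of simple epithelia, alone stood at 603, 554 and 605 FPKM with PBS and at 46.8, 54.0 and 52.5 FPKM with cisplatin. Msln fell less, from 100, 98.4 and 101 FPKM to 59.2, 60.6 and 63.3 FPKM (-0.70), and was not called. Xist, transcribed in female cells, changed by -2.31 and the Y-linked Ddx3y by 1.15. Of the endothelial markers, 3 of 8 were tested, their sum was 13.9 to 14.7 FPKM with PBS and 19.8 to 21.2 FPKM with cisplatin, and Cldn5 had 0 reads in all libraries. The 3 went both ways, with Tek lower (-0.92, limma adjusted p = 1.19e-04) and Pecam1 (0.66) and Vwf (0.85) higher. Fibroblast markers (2 of 7 tested) summed to 56.2 to 60.2 FPKM against 18.5 to 20.5 FPKM, of which Dcn alone was 51.1 to 55.8 FPKM against 15.4 to 17.1 FPKM. Dendritic cell markers (4 of 6 tested) summed to 17.5 to 18.9 FPKM against 34.7 to 37.2 FPKM, with Zbtb46 at -0.69 and the other 3 higher by the adjusted p, and here Zbtb46 passed the filter through PBS only and Flt3 through cisplatin only, which set their direction. In such bulk samples, fewer cells of a type and less RNA per cell cannot be told apart, and the part of these shifts in the junction gene differences was not tested.

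The 7 genes of the tight junction plaque and its membrane partners summed to 204, 214 and 211 FPKM in the PBS libraries and to 33.7, 33.2 and 35.4 FPKM in the cisplatin libraries. Of the 6 tested, 5 were downregulated. F11r (ENSMUSG00000038235, chr1:171437535-171464603, plus strand) encodes JAM-A, a junctional adhesion molecule of epithelia, endothelia and leukocytes. It stood at 113, 117 and 118 FPKM with PBS and at 10.2, 12 and 12.6 FPKM with cisplatin. The groups were far apart, with means of 116 ± 2.31 and 11.6 ± 1.24 FPKM (SD, n = 3 each), a ratio of 9.98. F11r fell by 3.22 (SE 0.072, limma adjusted p = 1.24e-07), and in the PBS libraries this single gene made up 34.7% to 35.5% of the summed FPKM of all 76 genes, against 11.8% to 14.2% with cisplatin.

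Tjp1 (chr7:65296165-65527781, minus strand) encodes ZO-1, the scaffold that ties tight junction strands to actin. Its levels were 28.4, 33.1 and 30.4 FPKM with PBS and 4.58, 3.80 and 4.33 FPKM with cisplatin, a log2 fold change of -2.60 (SE 0.078, limma adjusted p = 3.70e-07). Tjp1 was the second most abundant of the 76 genes with PBS and ranked 10 with cisplatin. Tjp3, encoding ZO-3, did not share the fall of Tjp1, with low levels of 1.86, 1.64 and 1.51 FPKM with PBS and 2.11, 2.10 and 2.12 FPKM with cisplatin. Its groups did not overlap, and the difference of 0.22 passed the adjusted p (0.0437, limma) but lay far under the fold threshold and turned to -0.42 under Y-linked scaling. Exons of Tjp3 overlap Apba3 on the opposite strand, and whether the counting used strand is not given in the sources used here. The cytoplasmic linkers cingulin (Cgn) and paracingulin (Cgnl1) were both downregulated. Cgnl1 stood at 27.0, 28.2 and 28.0 FPKM with PBS and at 7.71, 6.96 and 7.17 FPKM with cisplatin, a change of -1.80. Cgn stood at 9.11, 9.80 and 10.5 FPKM against 3.39, 3.15 and 3.23 FPKM, a change of -1.34. Ocln, encoding occludin, was close to undetected, with 4, 2 and 0 reads in the PBS libraries and 6, 1 and 1 reads in the cisplatin libraries.

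Of 23 claudins, the strand-forming proteins of tight junctions, 4 were tested, and they moved in different directions. Cldn3 (chr5:134986214-134987472, plus strand), a claudin that tightens the barrier, stood at 12.1, 10.5 and 11.9 FPKM with PBS and at 0.934, 1.02 and 1.01 FPKM with cisplatin. Its groups were separated by a ratio of 11.6 between the means, and it fell by 2.65 (SE 0.071, limma adjusted p = 2.30e-07). Only 20 to 21 reads lay behind each cisplatin value, and exons of Cldn3 overlap Wbscr25 on the opposite strand. Cldn12, a claudin without the usual scaffold-binding tail, was also downregulated, from 10.5, 12 and 11.1 FPKM to 5.01, 4.58 and 4.51 FPKM, a change of -1.10. Its call was lost under quantile normalisation (-0.996). Cldn1 (chr16:26356642-26371841, minus strand), a sealing claudin best known from the skin, showed the opposite order. It stood at 1.40, 1.19 and 1.05 FPKM with PBS and at 2.78, 2.40 and 2.76 FPKM with cisplatin, so that every cisplatin library lay above every PBS library. The difference of 0.72 (SE 0.094, limma adjusted p = 4.33e-04) was under the fold threshold, although the ratio of the mean FPKM was 2.18. With a pseudocount of 0.1 in place of 1, Cldn1 was called higher at 1.07, and limma voom on the recovered reads also called it at 1.21. Cldn15, a claudin that forms a pore for cations, overlapped between groups, at 1.78, 2.75 and 1.94 FPKM with PBS and 2.49, 2.41 and 2.51 FPKM with cisplatin, and it did not pass the test (0.15, limma adjusted p = 0.313).

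The sequences before the starts of F11r and Cldn3, and of Gja1 and Cldn1, show what the opposed genes hold in front of them. F11r and Cldn3 had the 2 largest falls on the log2(FPKM + 1) scale, although Pkp2 passes F11r by the ratio of means. Gja1 and Cldn1 had the 2 largest differences in the other direction on that scale, although Cdh1 passes Gja1 by the ratio of means. RefSeq promoter entries matched 53 of the 76 genes and 14 of the 22 tested. Cdh1, Cdh2, Pkp1, Pkp2 and Pkp3 were among those without an entry. The 250 bases before each RefSeq start on GRCm38.p6 are printed 5′ to 3′ on the strand of the gene. Capitals mark CAGGTG, the E-box bound by Snail and ZEB repressors, TGANTCA, the AP-1 element, and GGGCGG, the GC box. CAGGTG and GGGCGG were searched on both strands, so that CACCTG and CCGCCC count as matches, TGANTCA reads the same on both, and no matches overlapped in the 4 sequences. The windows are chr1:171437311-171437560 (plus strand) for F11r, chr5:134985964-134986213 (plus strand) for Cldn3, chr10:56377050-56377299 (plus strand) for Gja1 and chr16:26371840-26372089 (minus strand) for Cldn1.
F11r: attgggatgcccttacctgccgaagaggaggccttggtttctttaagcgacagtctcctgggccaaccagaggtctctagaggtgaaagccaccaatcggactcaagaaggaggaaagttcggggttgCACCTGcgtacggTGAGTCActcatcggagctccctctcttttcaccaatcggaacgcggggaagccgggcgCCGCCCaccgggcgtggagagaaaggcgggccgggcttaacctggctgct
Cldn3: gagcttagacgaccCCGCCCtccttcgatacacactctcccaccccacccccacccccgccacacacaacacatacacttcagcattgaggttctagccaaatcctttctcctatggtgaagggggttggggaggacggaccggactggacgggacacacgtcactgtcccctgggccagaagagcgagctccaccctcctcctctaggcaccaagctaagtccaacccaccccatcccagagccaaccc
Gja1: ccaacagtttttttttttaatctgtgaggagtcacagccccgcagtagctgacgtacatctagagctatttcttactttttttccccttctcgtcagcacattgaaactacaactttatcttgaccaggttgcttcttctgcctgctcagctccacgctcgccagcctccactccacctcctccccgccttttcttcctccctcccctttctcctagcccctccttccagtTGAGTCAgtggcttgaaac
Cldn1: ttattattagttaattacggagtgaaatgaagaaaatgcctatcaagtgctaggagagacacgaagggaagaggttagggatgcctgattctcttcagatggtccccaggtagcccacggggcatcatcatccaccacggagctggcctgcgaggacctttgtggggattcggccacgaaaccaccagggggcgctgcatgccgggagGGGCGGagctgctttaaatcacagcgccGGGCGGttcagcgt

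The RefSeq start lies 26 bases inside the F11r gene as the deposited table places it, 30 bases upstream of the table's start for Gja1 and 2 bases inside Cldn1, and it is the same for Cldn3, and distances are counted from the RefSeq start. F11r held all 3 motifs, with CACCTG starting 122 bases, TGAGTCA 109 bases and CCGCCC 50 bases before the start. Gja1 held TGAGTCA starting 19 bases before its start and no match to the other motifs. Cldn1 held GGGCGG starting 42 and 14 bases before its start, and Cldn3 held CCGCCC starting 236 bases before its start. CAGGTG was found for 3 of the 14 tested genes with an entry (F11r, Pkp4 and Tjp3) and for 19.4% of all 27025 genes with entries. TGANTCA was found for 3 of the 14 (Cldn15, F11r and Gja1) and for 7.82% of all genes, and GGGCGG for 12 of the 14 and for 35.4% of all genes. The 14 had passed the filter on level and the 27025 were not filtered, so the 2 sets are not matched. These matches describe letters in the window and name no bound factor.

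All 6 genes of the desmosome plaque, which links desmosomal cadherins to keratin filaments, were tested, and 4 were downregulated. Jup (chr11:100368958-100397763, minus strand) encodes plakoglobin, shared by desmosomes and adherens junctions, and stood at 24.2, 23.3 and 24.0 FPKM with PBS and at 4.75, 5.32 and 5.08 FPKM with cisplatin. It fell by 2.04 (SE 0.050, limma adjusted p = 1.66e-07). Pkp2 (chr16:16213318-16272712, plus strand), the plakophilin also found in heart, stood at 10.3, 10.8 and 9.75 FPKM with PBS and at 0.932, 1.06 and 0.825 FPKM with cisplatin. The Pkp2 means differed by a ratio of 11 and the log2 fold change was -2.54 (limma adjusted p = 2.87e-07). Pkp1, the plakophilin of stratified epithelia, fell by 1.64, from 4.41, 5.01 and 5.17 FPKM to 0.960, 0.80 and 0.892 FPKM, so that none of its cisplatin libraries reached 1 FPKM. Dsp, encoding desmoplakin, the plaque protein that binds keratins, fell by 1.2, from 4.43, 4.40 and 5.65 FPKM to 1.64, 1.48 and 1.44 FPKM, with exons that overlap Gm10129 on the opposite strand. Pkp4, a relative found mainly at adherens junctions, was lower in all 3 cisplatin libraries (4.56, 5.57 and 5.09 FPKM) than in the PBS libraries (8.39, 8.98 and 9.48 FPKM), and its difference of -0.71 (limma adjusted p = 1.69e-04) was under the fold threshold. Pkp3, a plakophilin of most epithelia, overlapped between the groups at 1.80, 1.40 and 1.3 FPKM with PBS and 1.72, 1.57 and 1.52 FPKM with cisplatin (0.063, limma adjusted p = 0.607).

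The cadherins, the calcium-dependent adhesion receptors, did not share the pattern of the plaque genes in their sum, which was 10.7, 10.5 and 8.84 FPKM with PBS and 9.52, 11 and 9.86 FPKM with cisplatin. Of 23 cadherins, 3 were tested and 0 were called. Cdh1 (chr8:106603351-106670246, plus strand), encoding E-cadherin of epithelial adherens junctions, stood at 3.41, 3.65 and 2.65 FPKM with PBS and at 4.82, 5.84 and 5.56 FPKM with cisplatin. The difference of 0.60 (SE 0.110, limma adjusted p = 0.00238) was under the fold threshold and turned to -0.18 under Y-linked scaling, and the groups did not overlap. Cdh2, encoding N-cadherin of mesenchymal and mesothelial cells, went the other way, with 3.03, 3.15 and 2.64 FPKM against 1.01, 0.989 and 0.916 FPKM. Its log2 fold change of -0.998 (SE 0.084, limma adjusted p = 4.83e-05) was just short of the fold threshold and the closest to it among the uncalled genes, while Cldn12 at -1.10 was the closest among the called ones. Cdh2 was called lower at a pseudocount of 0.1 (-1.5), with TPM (-1.35), with limma voom (-1.51), with Y-linked scaling (-1.60) and without PBS replicate 3 (-1.05), cisplatin replicate 1 (-1.01) or cisplatin replicate 2 (-1.01). Cdh24, a less studied classical cadherin, stood at 1.59, 1.2 and 1.05 FPKM with PBS and 1.72, 2.23 and 1.80 FPKM with cisplatin, a difference of 0.36 (limma adjusted p = 0.0339) with a gap between the groups smaller than the spread of either, and -0.23 under Y-linked scaling.

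Of 16 connexins, 3 were tested, and Gja1 was higher with cisplatin, or slightly lower under Y-linked scaling (-0.23). Gja1 (chr10:56377330-56402513, plus strand) encodes connexin 43, the most widespread gap junction protein. Its levels were 5.88, 5.80 and 5.84 FPKM with PBS and 9.68, 9.40 and 9.81 FPKM with cisplatin, with little spread in either group and a ratio of 1.65 between the means. The difference of 0.64 (SE 0.044, limma adjusted p = 1.70e-05) was under the fold threshold. The summed FPKM of the 76 genes was itself lower with cisplatin (87.0 to 89.2) than with PBS (326 to 336). The share of Gja1 in that sum was 1.72% to 1.80% with PBS and 10.6% to 11.1% with cisplatin, and its rank among them went from 13 to 2. Gjb5 was too low for testing, at 0.821, 1.31 and 1.05 FPKM (25, 35 and 28 reads) with PBS and 0.273, 0.283 and 0.246 FPKM (8, 8 and 7 reads) with cisplatin, and its groups did not overlap.

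**Figure D2:**
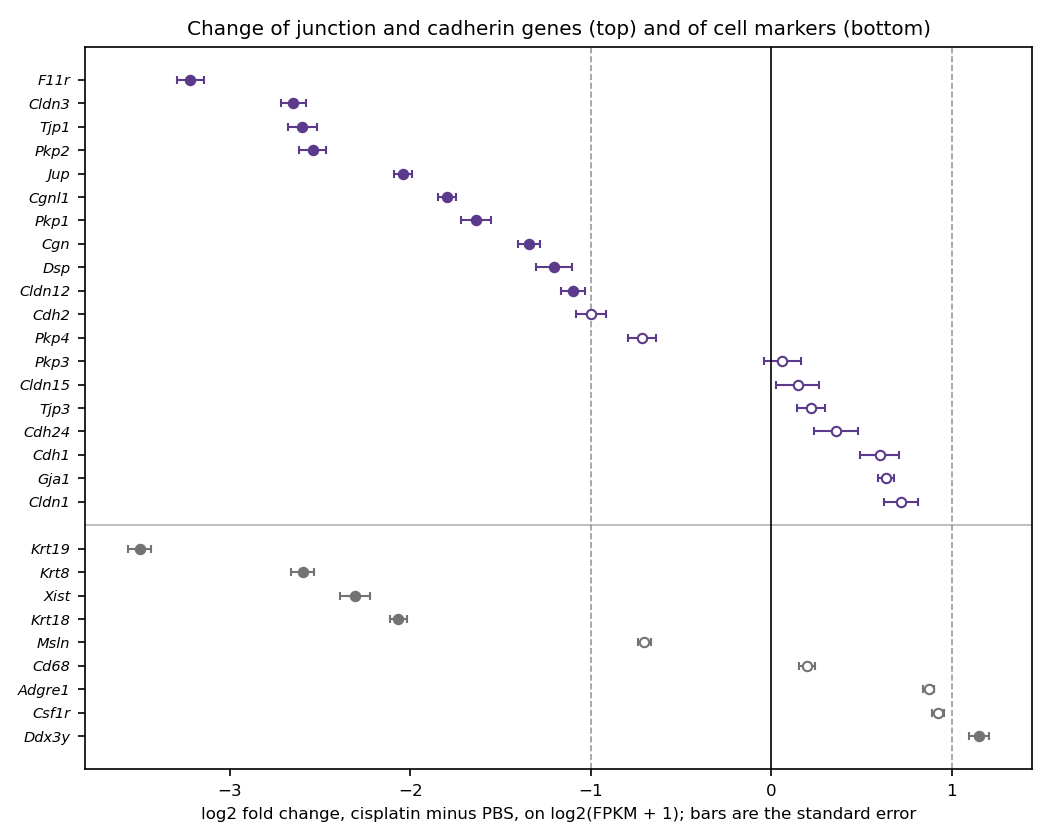
Log2 fold change (cisplatin minus PBS, log2(FPKM + 1) scale) with its SE for 19 of the 22 tested junction and cadherin genes and 9 cell markers, with filled points for called genes and open points for the rest. The 10 called junction genes drawn lay between -3.22 and -1.10, the keratins Krt8, Krt18 and Krt19 between -3.50 and -2.07, and the macrophage genes Adgre1, Csf1r and Cd68 between 0.20 and 0.92 (below 0 when libraries were scaled by the 4 Y-linked genes, which put the median of all genes at -0.81).

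Within a family, the ratio of 2 genes measured in the same library does not depend on any single factor by which that library is scaled. Quantile normalisation is not such a factor. The choice of pairs was made with the values in view, so no test is given. The ratio of Cdh1 to Cdh2 was 1.12, 1.16 and 1.0 in the PBS libraries and 4.79, 5.91 and 6.07 in the cisplatin libraries. The ratio of Cldn1 to Cldn3 was 0.116, 0.114 and 0.0886 against 2.98, 2.37 and 2.74, so that Cldn3 was the more abundant in each PBS library and Cldn1 in each cisplatin library. The mean ratio of Pkp3 to Pkp2 was 0.146 ± 0.025 (SD, n = 3) with PBS and 1.73 ± 0.21 with cisplatin, the same reversal of order. Tjp3 stayed below Tjp1 in all libraries, at a mean ratio of 0.0548 with PBS and 0.501 with cisplatin. Since each pair sets a gene that was lower with cisplatin beside one that was not, the separation of the groups follows from the choice of pairs, and the ratios are given as a description.

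**Figure D3:**
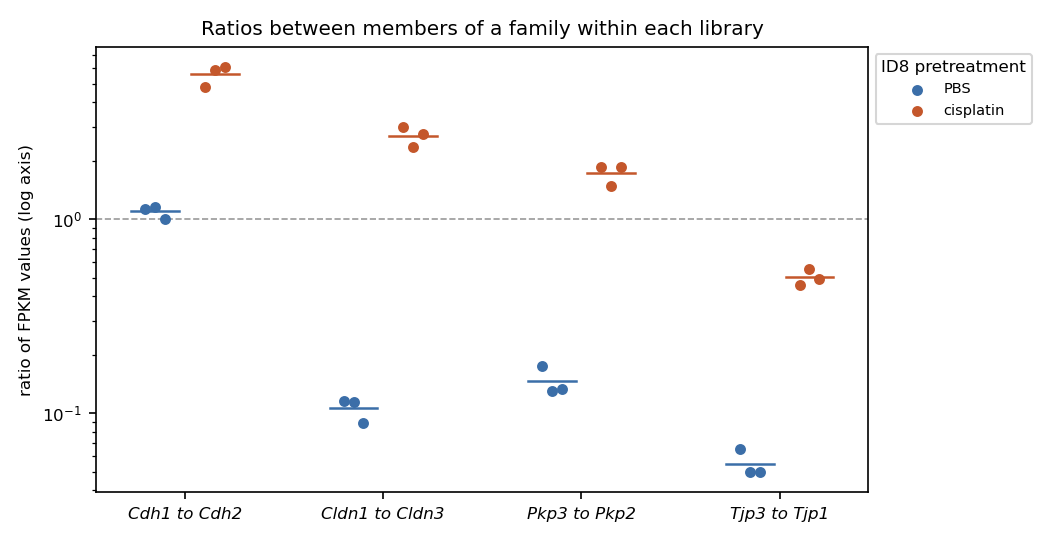
Ratio of FPKM between 2 genes of the same family (log axis) in each PBS and cisplatin library, for the 4 pairs. Every cisplatin library lay above every PBS library, with mean ratios of 0.106 and 2.69 for Cldn1 to Cldn3 as the widest separation.

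Among the scalings tried, Y-linked scaling alone turned the sign of any of the 22 genes. In it, libraries were scaled to an equal summed FPKM of 4 genes of the Y chromosome (Ddx3y, Eif2s3y, Uty and Kdm5d). The median over all tested genes became -0.81, so that all genes were shifted together. The ratio of means, cisplatin to PBS, was 2.37 for Ddx3y and 1.66 for Eif2s3y, so the size of the shift depends on the genes summed. Under this scaling 37.5% of all tested genes were called lower and 0.647% higher, so the member calls are read against that. All 13 called genes were still called lower, F11r at -4.15, and Cdh2 (-1.60) and Pkp4 (-1.56) were called as well. Cdh1 (-0.18), Gja1 (-0.23), Cdh24 (-0.23), Tjp3 (-0.42), Cldn15 (-0.53) and Pkp3 (-0.53) turned negative under the same scaling, and Cldn1 was at 0.098. Relative to the median of all genes, these 6 genes lay 0.28 to 0.63 above it and Cldn1 lay 0.91 above it, while F11r lay 3.33 below.

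**Figure D4:**
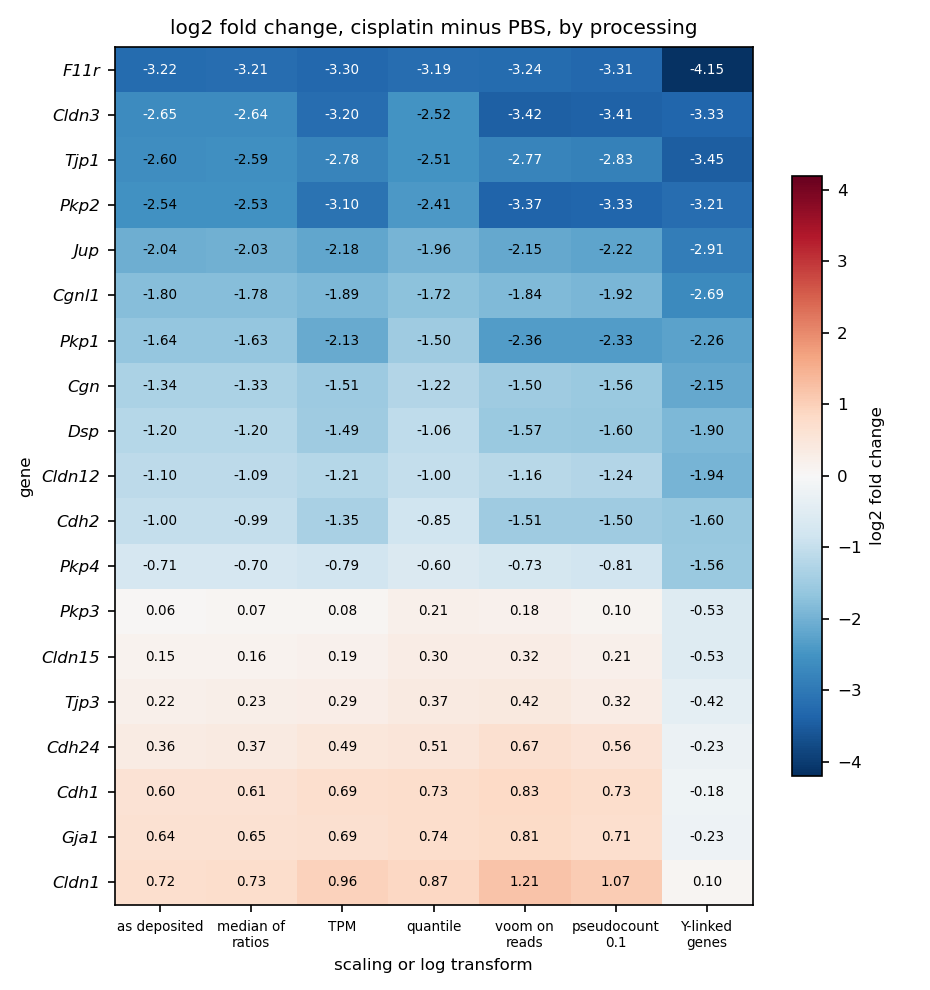
Log2 fold change of 19 of the 22 tested junction and cadherin genes (rows) under 7 ways of processing the libraries (columns), coloured by sign and size. The 10 called genes drawn were negative in every column, whereas Cdh1, Cdh24, Cldn15, Gja1, Pkp3 and Tjp3 were positive in the main fit and negative when scaled by the 4 Y-linked genes, which put the median of all genes at -0.81.

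The other 54 genes did not reach the level for testing, and 13 of them had 0 reads in all 6 libraries, where a count of 0 allows up to 3 reads by counting error alone. A few of them reached 0.5 FPKM in at least 1 library, Gjb5 among them. Cdh26, a cadherin of epithelia, had 37, 32 and 33 reads with PBS and 1, 4 and 2 reads with cisplatin. Cldn20 had 9, 10 and 6 reads against 1, 0 and 0 reads. Both were lower in every cisplatin library. Gja5, connexin 40 of arterial endothelium, was higher in every cisplatin library, with 11, 0 and 13 reads against 51, 42 and 28 reads, and its exons overlap Gpr89 on the opposite strand. Without the filter on low values, limma gave an adjusted p of 4.19e-04 for Cdh26 (-0.69), 0.00196 for Cldn20 (-0.78), 0.00652 for Gjb5 (-0.69) and 0.0192 for Gja5 (0.39). Cdh26, Cldn20 and Gjb5 reached 0.5 FPKM only with PBS, and Gja5 only with cisplatin. They were thus named through the group where they stood higher, and these p-values are given as a description. Cdh17, the liver-intestine cadherin, with 34, 50 and 33 reads against 28, 21 and 30 reads, and Cdh22, with 39, 27 and 34 reads against 44, 22 and 21 reads, did not pass (0.279 and 0.648, limma adjusted p).

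Among the 34 remaining genes with any read, no library exceeded 73 reads or 0.454 FPKM. Epcam, the adhesion molecule widely used to mark carcinoma cells, had 11, 6 and 5 reads with PBS and 14, 7 and 9 reads with cisplatin, and the groups overlapped. With Ocln, Cldn4 and Cldn7 it belonged to the genes typical of glandular epithelium that were near 0 in both groups, so "epithelial" describes the choice of genes rather than a full set of epithelial junction genes in these libraries. Cdh5, the cadherin of endothelium, had 10, 6 and 15 reads against 21, 26 and 17 reads. Cldn6, a claudin of embryonic epithelia, had 0 reads in each PBS library and 3, 1 and 3 reads with cisplatin, at the limit that a count of 0 allows.

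Genes that work beside the junction proteins moved mostly in the same direction as the plaque genes. Of 22 other adherens junction and nectin genes, 16 were tested, 10 were downregulated and 0 were upregulated, with a median of -1.22. The 2 largest changes on the log2(FPKM + 1) scale were those of Nectin2, an adhesion receptor that recruits cadherins, from 50.7, 46.2 and 48.9 FPKM to 5.45, 6.43 and 6.79 FPKM (-2.78), and of Afdn, encoding afadin, which ties nectins to actin, from 21.9, 22.7 and 22.0 FPKM to 5.23, 5.26 and 5.28 FPKM (-1.89). Neither overlapped between the groups. By the ratio of means, Plekha7 (4.49) and Cadm1 (4.40) pass Afdn (4.23). Of 31 tight junction, polarity and associated genes in the table, 22 were tested, 12 were downregulated and 0 were upregulated, with a median of -1.07. Lsr, a protein of tricellular contacts, fell from 18.8, 16.7 and 18.3 FPKM to 1.76, 1.71 and 2.93 FPKM (-2.61), and the polarity gene Pard6b fell from 12.3, 13 and 13.8 FPKM to 1.56, 1.79 and 1.51 FPKM (-2.42). Panx1, a channel protein related in fold to connexins, was the only tested gene of 7 other connexins and pannexins, at 0.52, and was not called.

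Of 20 genes for keratins, plaque-associated proteins and the epithelial surface, 15 were tested, 6 were downregulated and 1 was upregulated, with a median of -0.35. Krt19 (-3.50) and Krt8 (-2.60), the filament proteins of simple epithelia, changed most on the log2(FPKM + 1) scale, and Krt18 changed by -2.07. Spint1, an inhibitor of epithelial surface proteases that was named here after its values were seen, was the 1 upregulated gene, from 0.306, 0.232 and 0.140 FPKM to 4.36, 5.17 and 5.84 FPKM (2.32), with a ratio of means of 22.7 against 11.5 for Krt19. Of 24 transcription and splicing factors linked to the epithelial and mesenchymal states, 12 were tested, 5 were downregulated and 1 was upregulated, with a median of -0.70. Elf3, an epithelial ETS factor, fell from 12.2, 13.1 and 12.5 FPKM to 0.398, 0.385 and 0.355 FPKM (-3.30). Wt1, a factor of mesothelium, fell from 36.5, 38.6 and 38.3 FPKM to 3.53, 3.48 and 3.22 FPKM (-3.14). Zeb2, a repressor of E-cadherin that macrophages also express, was the upregulated gene and was also named after its values were seen, at 8.13, 8.59 and 8.30 FPKM with PBS and 18.7, 17.4 and 17.4 FPKM with cisplatin (1.01). Its call was lost without PBS replicate 1, without cisplatin replicate 1 and under scaling by the 4 Y-linked genes. The other tested Snail and ZEB genes went the other way. Snai1 was called lower (-1.06), and Zeb1 (-0.66) and Snai2 (-0.59) were lower by the adjusted p but under the fold threshold. Elf3 and Spint1 passed the filter through 1 group only (PBS and cisplatin, respectively), as did 5 other called genes of these lists through PBS. The filter thus set their direction (or favoured it, for Plekha7), and the counts are a description. These lists were read against the same 11.3% and 4.67% of all tested genes, and they were drawn up with earlier results of these data known.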

How the data were processed

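Poly-T selected RNA of 6 co-culture libraries, 3 per group by their labels, was measured. The deposited table gives FPKM per gene, made by the authors. The submitters' processing notes name fastp, HISAT2 2.0.5, featureCounts 1.5.0-p3 and build mm10, whereas the study's methods name LifeScope for alignment and counting and DESeq2 for testing. Strand setting and versions beyond these are not given in the sources used here. Coordinates are those of the table (GRCm38).

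Multiplied by gene length, 100% of values worth fewer than 200 reads came out as whole reads (within 0.02 reads), and 15776238 to 17924686 reads were recovered per library. Behind tested members lay 20 to 5345 reads in a library, so counting error is largest for the lowest of them. The number of value columns left unmapped was 0.

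Genes with at least 1 FPKM in at least 3 libraries entered limma 3.58.1 under R 4.3.3 (lmFit, eBayes with a trend) on log2(FPKM + 1), with group as the only term and Benjamini-Hochberg adjustment over 13441 genes. The fold threshold of 2 is that of the study's methods. The procedure was tested on simulated data. All tested members, untested ones with 0.5 FPKM in any library, the 2 called genes with the largest change in each list, and 9 cell markers are named, except that some single-gene results are not reported here. The members and lists were chosen with earlier results of these data known.

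Groups share replicate numbers, but no source says that equal numbers share a preparation, so a fit with a replicate block was an alternative. The others were scaling by TPM, quantiles, median of ratios or Y-linked genes, a minimum of 5 FPKM or none, a pseudocount of 0.1, eBayes without a trend, limma voom on recovered reads, protein-coding genes only, the adjusted p alone, and leaving out each library. The within-family ratios and their values without each library were added after the data were seen.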

Additional observations from a re-analysis of the deposited data

How the results depend on the processing

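The 13 downregulated junction genes numbered 13 again with the replicate number as a block, and 0 were upregulated. Same-numbered libraries did not deviate together (r of -0.104, -0.0857 and -0.0235 for replicates 1, 2 and 3 across genes), so the numbers are not taken as a pairing. Upregulated members numbered 1 with a pseudocount of 0.1, 1 with limma voom and 5 by the adjusted p alone. The median of -1.27 became -1.58 with a pseudocount of 0.1, -1.80 over the 13 members left at a filter of 5 FPKM, -1.5 with TPM, -1.14 with quantile normalisation, -2.05 with Y-linked scaling and -1.53 with voom, and ranged from -1.32 to -1.20 when 1 library was left out. Without a filter it was 0.0087, over 63 members, most of them with few reads. Under Y-linked scaling the signs of Cdh1 (-0.18), Cdh24 (-0.23), Cldn15 (-0.53), Gja1 (-0.23), Pkp3 (-0.53), Tjp3 (-0.42), Adgre1 (-0.097), Cd68 (-0.77) and Csf1r (-0.037) turned. Those of the macrophage markers Fcgr1 (-0.25) and Cd14 (-0.28) turned as well. In the lists, upregulated keratin and surface genes (1) numbered 2 with a pseudocount of 0.1, 2 with voom, 0 at a filter of 5 FPKM and 3 by the adjusted p alone. Epithelial-mesenchymal factors called lower (5) numbered 8 with Y-linked scaling (where 37.5% of all tested genes were lower) and 8 by the adjusted p alone (35.1%), and those called higher (1) numbered 0 with Y-linked scaling, 2 by the adjusted p alone and 0 to 1 with 1 library left out. By the adjusted p alone, 2 tight junction and polarity genes and 1 pannexin were higher. Cldn12 was not called under quantile normalisation (-0.996), and the other 12 downregulated members were called in every alternative run that kept them. Another 209 counts and medians stayed within a set margin of the main value. Many of these counts were 0 in both, and the margin took in 10 against 15 adherens junction genes lower by the adjusted p alone. Another 619 gene or ratio values kept their sign, and the genes among them also kept their call or lack of it. The causes of these shifts were not tested. The 54 untested members had too few reads for the filter, and 13 of them had 0 reads in every library.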
